A study of Homo sapiens with 9 samples.

Results

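The 35 genes described here are immediate early genes, subunits of the AP-1 transcription factor and feedback inhibitors of the MAP kinase pathways. They were chosen by symbol from a fixed list, which was drawn up with earlier results of these data known. All 35 were found among the 32906 listed genes, and 32 of them passed the filter on low values. RNA sequencing was done in cells labelled Huh7, an established cell line from a human hepatocellular carcinoma. The RNA was from 48 hours after transfection with a control siRNA (Scramble) or with either of the siRNAs named Si-KDM4C#1 and Si-KDM4C#2. Each group had 3 libraries, 9 in all. The siRNAs are directed against KDM4C, a histone lysine demethylase, and the comparisons ask how its silencing changed the mRNA of these genes and whether the siRNAs did so alike. The labels name no further gene or agent in any group, and the cells of all groups were kept in the same DMEM medium with serum and antibiotics. The design holds a single cell line and a transient knockdown. The methods state in general that experiments were repeated independently, but the labels do not say whether the libraries of a group came from separate cultures. If they did not, the p-values measure only the spread between these libraries, which may be technical.

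Growth factors and stress reach the nucleus through the RAS-ERK, JNK and p38 kinase cascades, and immediate early genes such as FOS, JUN and EGR1 are transcribed in response without the need for new protein. FOS and JUN proteins pair to form AP-1, while dual-specificity phosphatases (DUSP), Sprouty and SPRED proteins switch the cascades off again and ZFP36 proteins bring about decay of the short-lived mRNAs. In liver these genes are best known for their rapid induction after partial hepatectomy.

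The values are FPKM, fragment counts divided by the length of a gene's exons and by the size of the library, so that levels may be compared between genes. The library totals recovered from them ran from 14597503 to 18058556 fragments. KDM4C mRNA was at 4.88, 4.63 and 4.57 FPKM in the Scramble libraries, at 1.18, 1.10 and 1.13 FPKM with Si-KDM4C#1 and at 0.256, 0.349 and 0.256 FPKM with Si-KDM4C#2. It fell with each siRNA, by 1.41 and 2.15 on the log2(FPKM + 1) scale, and further with Si-KDM4C#2. The mRNA of the paralog KDM4B was at 6.28 ± 0.340 FPKM in Scramble (SD, n = 3), at 5.77 ± 0.633 FPKM with Si-KDM4C#1 (SD, n = 3) and at 1.18 ± 0.0814 FPKM with Si-KDM4C#2 (SD, n = 3). KDM4B thus fell with Si-KDM4C#2 (limma-trend adjusted p = 1.43e-07) and did not pass the test with Si-KDM4C#1 (limma-trend adjusted p = 0.240; -0.33 and adjusted p = 0.00251 with adjustment for GC content), and its part in the results below was not tested. All 11 listed hepatocyte markers of 14 searched, ALB and AFP among them, stayed under 1 FPKM in every library (summed level 0.0483 to 0.271 FPKM). The labelled liver origin is thus not visible in these markers, and the identity of the line was not tested. Of 5 listed epithelial markers, KRT8, KRT18 and CLDN4 reached 1 FPKM, and 2 stayed under it in every library. Of 7 mesenchymal markers, VIM, CDH2, COL1A1, COL3A1 and PDGFRB reached it, and 2 stayed under it. All listed leukocyte (5) and endothelial (3) markers stayed under 1 FPKM. The summed epithelial markers ran from 331 to 354 FPKM in Scramble, from 290 to 309 FPKM with Si-KDM4C#1 and from 241 to 255 FPKM with Si-KDM4C#2, and the summed mesenchymal markers from 101 to 111, 118 to 120 and 149 to 151 FPKM. These sums moved with the groups, but single markers did not all follow them. With Si-KDM4C#1, 1 of 3 tested epithelial markers rose and 2 fell, and 2 of 5 mesenchymal markers rose and 1 fell (-1.17). With Si-KDM4C#2, 0 epithelial markers rose and 2 fell, and 3 mesenchymal markers rose and 1 fell. The part of these levels in the results was not tested.

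Most members have few exons, a feature that played no part in their choice. In GENCODE 29, 28 of the 35 main transcripts (80.0%) had 4 exons or fewer, against 19.5% of the 10649 protein-coding genes averaging 1 FPKM or more, and the median number of exons was 3 against 9. The AU-rich nonamer TTATTTATT, an element bound by ZFP36 proteins, stood in the 3′ UTR of 13 members (37.1%) and of 8.5% of those 10649 genes. A single site is shown for each of 4 members called higher with Si-KDM4C#1 and for ZFP36L1, which encodes such a binding protein, in GRCh38 coordinates with the nonamer in capitals. DUSP1 and MAFF hold 2 nonamers each, and the other 3 hold 1. FOSL1, JUN, ETV4 and ETV5, also called higher with Si-KDM4C#1, hold none. The most nonamers stood in SPRED3 (5) and IER5 (3), neither of which rose with Si-KDM4C#1.
FOS, chr14:75282060-75282088, plus strand: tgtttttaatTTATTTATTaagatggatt
DUSP1, chr5:172768643-172768671, minus strand: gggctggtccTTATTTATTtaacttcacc
MAFF, chr22:38215914-38215942, plus strand: tccccactgtTTATTTATTgcacggatct
PHLDA1, chr12:76029787-76029815, minus strand: tgatttatgaTTATTTATTagtttttttt
ZFP36L1, chr14:68788077-68788105, minus strand: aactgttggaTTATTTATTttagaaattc

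RefSeq promoters (GRCh38.p14, 250 bases before to 50 after the start site) were matched to 27 members with 38 promoters. Letters were searched on both strands. The cAMP response element TGACGTCA, a site read by ATF, CREB and JUN proteins, was found in 5 of the 38 promoters (13.2%) and in 1.85% of all 35116 promoters; the genes were DUSP1, DUSP8, JUND, MAFF and ZFP36L1. The CArG box, the binding site of SRF, was found in 3 promoters (7.9%, against 1.29% of all), those of EGR1, EGR2 and SRF. The EGR site GCGNGGGCG was in 21.1% of member promoters and 9.43% of all, the AP-1 site TGANTCA in 7.9% and 7.71%, and the ETS site CCGGAAGT in 0 of the 38 and 4.14% of all. The windows of 3 genes with the cAMP response element, DUSP1 and MAFF that rose with Si-KDM4C#1 and JUND as the most abundant member, and the CArG boxes of EGR1 and SRF are printed with the matched letters in capitals. A match of letters is a description and shows no binding.
DUSP1, chr5:172771273-172771360, minus strand: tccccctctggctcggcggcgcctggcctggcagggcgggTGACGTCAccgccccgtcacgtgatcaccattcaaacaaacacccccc
MAFF, chr22:38201900-38201987, plus strand: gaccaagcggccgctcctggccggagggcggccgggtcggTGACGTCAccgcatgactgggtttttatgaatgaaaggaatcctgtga
JUND, chr19:18281775-18281862, minus strand: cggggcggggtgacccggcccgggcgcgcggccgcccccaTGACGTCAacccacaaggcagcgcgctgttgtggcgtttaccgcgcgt
EGR1, chr5:138465334-138465445, plus strand: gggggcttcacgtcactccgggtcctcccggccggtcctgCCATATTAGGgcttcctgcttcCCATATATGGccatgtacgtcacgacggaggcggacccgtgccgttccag
SRF, chr6:43171199-43171268, plus strand: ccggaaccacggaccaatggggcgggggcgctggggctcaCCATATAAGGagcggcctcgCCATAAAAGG

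**Figure D1:**
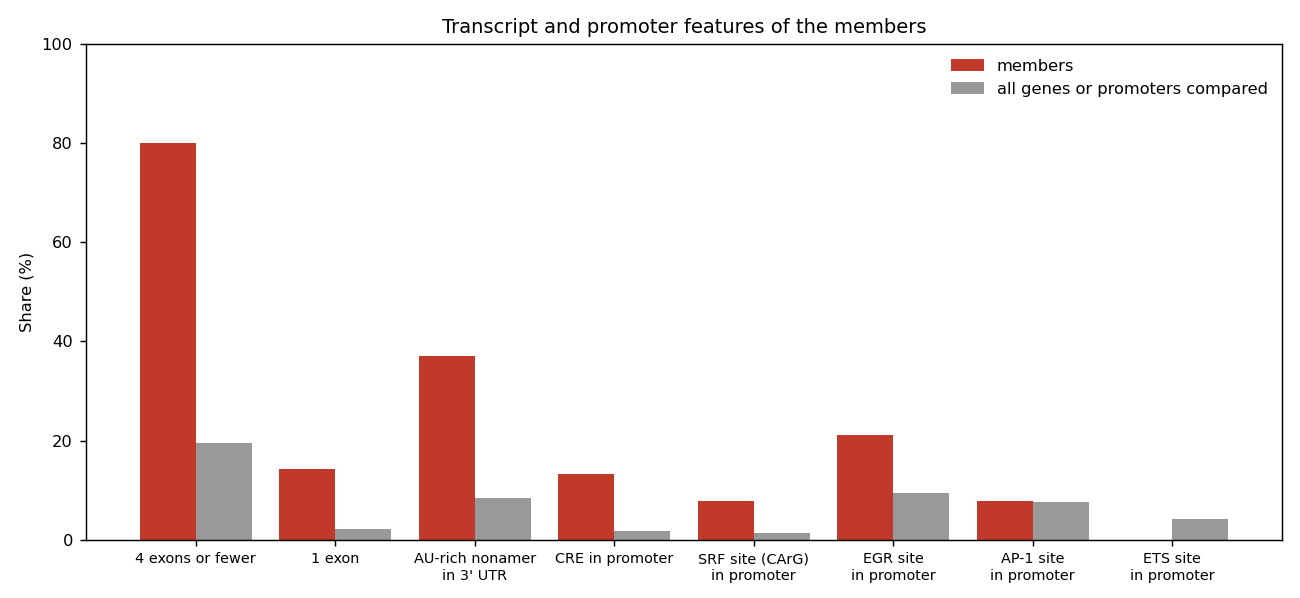
Shares (%) of members and of all genes or promoters compared that hold each feature; the 3 features on the left are counted over transcripts (35 members, 10649 genes) and the 5 on the right over promoters (38 of members, 35116 in all). Members with 4 exons or fewer made up 80.0%, against 19.5% of the genes compared.

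With Si-KDM4C#1 the members moved mostly upward. Of the 32 tested, 8 were called higher than in Scramble at a false discovery rate (FDR) under 0.05 and a fold change over 2, namely FOS, FOSL1, JUN, DUSP1, ETV4, ETV5, PHLDA1 and MAFF, where 4.04% of all 14363 genes tested were called higher. None was called lower with limma-trend or with limma voom, run on fragment counts recovered from FPKM, and 4 were lower at an unadjusted p under 0.05; 4.83% of all genes were called lower. By the FDR alone 25 members rose (31.7% of all genes did), 4 fell (33.9% of all genes) and 3 did not pass. PHLDA1 and SPRY4 passed the filter on low values only through their level with Si-KDM4C#1. Over the 31 members that averaged 1 FPKM or more across the 9 libraries, the median log2 fold change was 0.59, against -0.01 over the 13175 genes kept by the same filter. When the values of each library were adjusted for the GC content of the exons, 6 members were called higher, with ETV4 and MAFF no longer past the fold limit.

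With Si-KDM4C#2 the response was smaller and included other genes. FOSL1, DUSP2 and ETV4 were called higher (3 of 32, against 2.6% of all genes) and no member lower with limma-trend or limma voom, with 4 lower at an unadjusted p under 0.05 (2.3% of all genes were called lower). By the FDR alone 14 members rose (34.4% of all genes), 3 fell (25% of all genes) and 15 did not pass, and the median over the 31 members was 0.22, against 0.06 over all genes of that filter. The exons of the tested members were richer in G and C (median 55.2%) than those of all genes tested (48.2%). Quantile normalization gave 14 members that rose and 5 that fell by the FDR alone, and limma voom gave 14 and 7. With the GC adjustment 0 members were called higher, and by the FDR alone 9 rose and 10 fell. The same adjustment moved the calls over all genes from 373 higher and 330 lower to 238 higher and 376 lower, so the direction of smaller changes with Si-KDM4C#2 depends on this scaling.

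**Figure D2:**
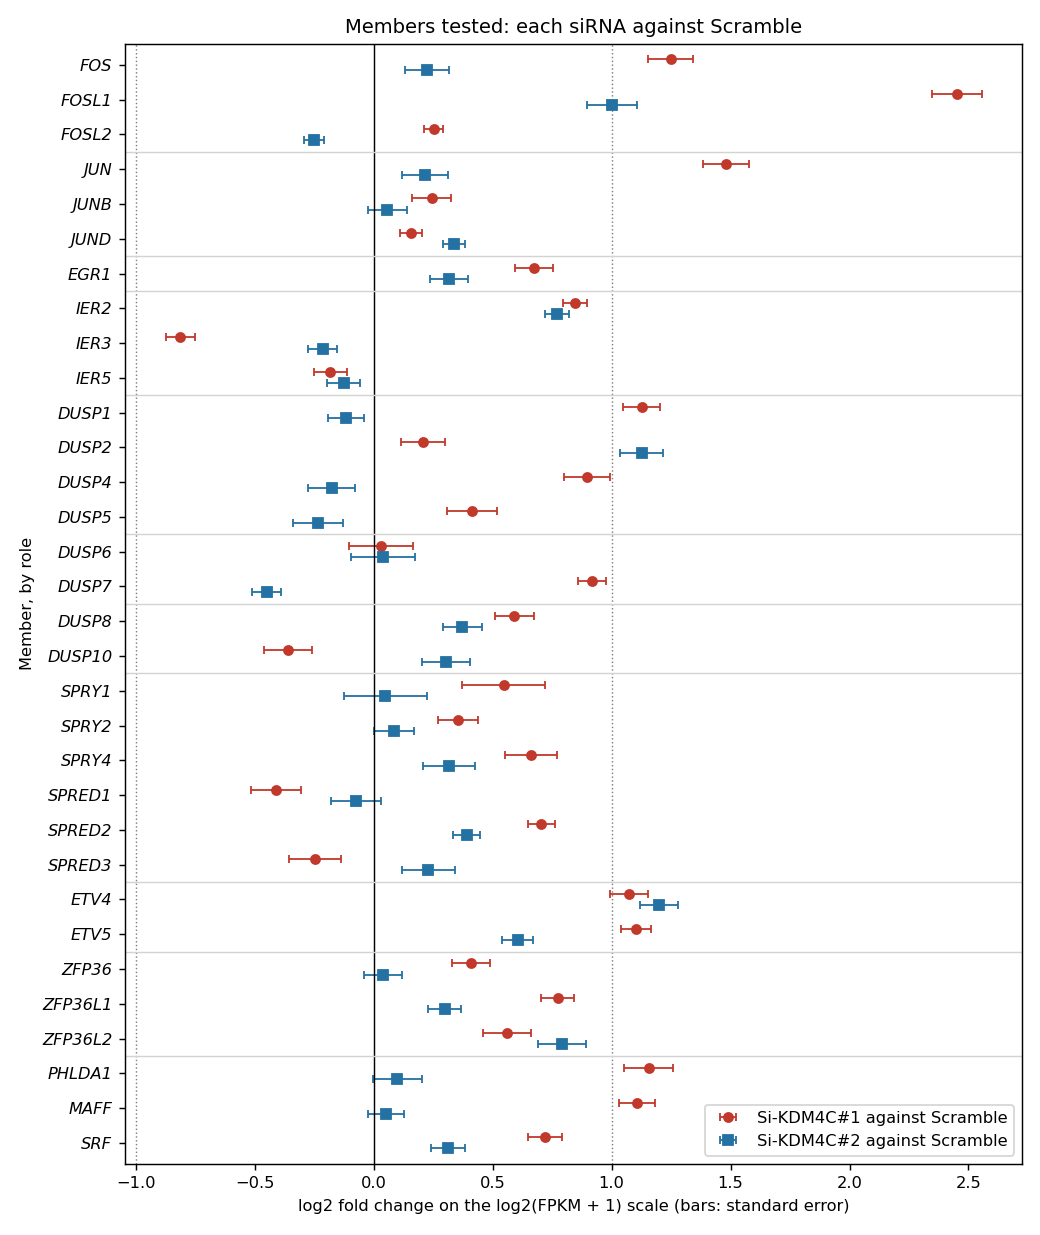
Log2 fold change on the log2(FPKM + 1) scale of the 32 members tested, with Si-KDM4C#1 (circles) and Si-KDM4C#2 (squares) against the same Scramble libraries; bars are standard errors and dotted lines mark a fold change of 2. The circle of FOSL1 lies farthest to the right at 2.45. FOSL2, DUSP7 and DUSP10 lie on opposite sides of 0 and passed the FDR with each siRNA. DUSP1, DUSP4, DUSP5 and SPRED3 also lie on opposite sides of 0 but did not pass with Si-KDM4C#2. With the GC adjustment JUNB and JUND turn below 0 with each siRNA, DUSP2 with Si-KDM4C#1, and MAFF and ZFP36 with Si-KDM4C#2. The same adjustment turns SPRED1 above 0 with Si-KDM4C#2. Quantile normalization turns JUND below 0 with Si-KDM4C#1 and JUNB with Si-KDM4C#2.

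The FOS family supplies the partner that JUN proteins need for the most stable AP-1 dimers. FOSL1, encoding FRA-1, changed most of all members with Si-KDM4C#1. It lies at chr11:65892049-65900573 (GRCh38). It was at 4.07, 3.63 and 3.99 FPKM in the Scramble libraries, at 21.7, 26.3 and 29.8 FPKM with Si-KDM4C#1 and at 9.71, 8.65 and 8.11 FPKM with Si-KDM4C#2. The groups did not overlap, and all libraries of Si-KDM4C#2 lay between those of Scramble and Si-KDM4C#1. The mean was 6.66 times that of Scramble with Si-KDM4C#1 (log2 fold change 2.45, SE 0.105, limma-trend adjusted p = 6.80e-08). With Si-KDM4C#2 it was 2.26 times that of Scramble (log2 fold change 1.00, SE 0.105, limma-trend adjusted p = 3.02e-05). This second call sits at the fold limit: without Scramble library 2 the log2 fold change was 0.96, without Si-KDM4C#2 library 1 it was 0.94, and with the GC adjustment 0.75, each still past the FDR.

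FOS itself, the founding member of the family (chr14:75278774-75282230), was at 1.49, 1.73 and 1.41 FPKM in Scramble, at 4.82, 5.48 and 4.81 FPKM with Si-KDM4C#1 and at 1.77, 1.81 and 2.35 FPKM with Si-KDM4C#2. Every Si-KDM4C#1 library lay above every other library. FOS rose 3.26 times with Si-KDM4C#1 (log2 fold change 1.25, SE 0.0936, limma-trend adjusted p = 2.09e-06), whereas the difference with Si-KDM4C#2 was 0.22 (SE 0.0936, limma-trend adjusted p = 0.0638). In limma-trend the latter reached an adjusted p of 0.0488 without Scramble library 2 and 0.0464 with a filter of 1 FPKM in every library. It was 0.11 with the GC adjustment (limma-trend adjusted p = 0.350). The lowest Si-KDM4C#2 library (1.77 FPKM) lay just above the highest Scramble library (1.73 FPKM). FOSB was below the filter, with 45 fragments over the Scramble libraries, 254 with Si-KDM4C#1 and 62 with Si-KDM4C#2. It was at 0.170 ± 0.109, 0.923 ± 0.228 and 0.231 ± 0.0221 FPKM (SD, n = 3 each), and in the fit over all 32906 genes it rose with Si-KDM4C#1 (log2 fold change 0.71, limma-trend adjusted p = 0.00115). The pseudocount of 1 compresses such low values, and limma voom on recovered fragments gave a log2 fold change of 2.71 for FOSB.

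FOSL2, encoding FRA-2, was the most abundant FOS family mRNA in every library. Its levels were 39.4, 36.5 and 39.0 FPKM in Scramble, 45.1, 46.6 and 45.6 FPKM with Si-KDM4C#1 and only 33.2, 31.5 and 31.3 FPKM with Si-KDM4C#2. All Si-KDM4C#1 libraries lay above and all Si-KDM4C#2 libraries below the Scramble libraries. On the log2 scale FOSL2 rose by 0.25 with Si-KDM4C#1 (SE 0.0402, limma-trend adjusted p = 3.68e-04) and fell by 0.25 with Si-KDM4C#2 (SE 0.0402, limma-trend adjusted p = 4.78e-04). With quantile normalization the rise was 0.07 and did not pass (limma-trend adjusted p = 0.125).

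Of the JUN family, the DNA-binding partners of FOS proteins, only JUN moved past the fold limit. JUN (chr1:58780788-58784327) was at 2.13, 2.03 and 2.75 FPKM in Scramble, at 7.51, 8.96 and 8.11 FPKM with Si-KDM4C#1 and at 3.06, 2.56 and 2.85 FPKM with Si-KDM4C#2. The Si-KDM4C#1 libraries stood apart from all others, while Scramble and Si-KDM4C#2 overlapped. JUN rose 3.56 times with Si-KDM4C#1 (log2 fold change 1.48, SE 0.0962, limma-trend adjusted p = 8.08e-07), and the difference with Si-KDM4C#2 was 0.22 (SE 0.0962, limma-trend adjusted p = 0.0808), which passed without Scramble library 3 (0.31, limma-trend adjusted p = 0.0145).

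JUND was the most abundant member, at 118.6, 109.8 and 111 FPKM in Scramble, at 131, 118 and 129 FPKM with Si-KDM4C#1 and at 142, 142 and 146 FPKM with Si-KDM4C#2. The Si-KDM4C#2 libraries lay above all others, and those of Scramble and Si-KDM4C#1 met. On the log2 scale JUND rose by 0.16 with Si-KDM4C#1 (limma-trend adjusted p = 0.0145) and by 0.34 with Si-KDM4C#2 (limma-trend adjusted p = 1.86e-04), but the GC adjustment turned both below 0 (-0.24 and -0.14) and quantile normalization turned the first (-0.05). Leaving out Scramble library 2, Si-KDM4C#1 library 1 or Si-KDM4C#1 library 3 also ended the first call, at 0.13, 0.13 and 0.14. JUNB was at 40.4 ± 5.01, 47.8 ± 2.47 and 41.9 ± 1.91 FPKM (SD, n = 3 each), with log2 fold changes of 0.24 (limma-trend adjusted p = 0.0262) and 0.06 (limma-trend adjusted p = 0.579) that became -0.06 and -0.31 with the GC adjustment. The rise with Si-KDM4C#1 did not pass without Scramble library 2 (0.14) or Si-KDM4C#1 library 3 (0.20). JUNB shares 14.2% of its exon bases with HOOK2 on the opposite strand, and the reads cannot be told apart where strand was not used.

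The make-up of the AP-1 mRNA pool differed accordingly. FOSL2 made up 87.2% ± 0.233 of the summed FOS family FPKM in Scramble, but 59.0% ± 2.89 with Si-KDM4C#1 and still 74.4% ± 0.386 with Si-KDM4C#2 (SD, n = 3 each). The share of FOSL1 was 8.87% ± 0.184, 33.3% ± 3.46 and 20.5% ± 1.17 in the same order, and no library of a group reached the range of another. The family sum itself was 43.9 ± 1.74 FPKM in Scramble, 77.7 ± 4.38 FPKM with Si-KDM4C#1 and again 43.0 ± 1.60 FPKM with Si-KDM4C#2 (SD, n = 3 each), the means of Scramble and Si-KDM4C#2 lying within 1 SD of each other. JUN remained a small part of the JUN family, at 1.48% ± 0.247, 4.51% ± 0.585 and 1.502% ± 0.135 of its summed FPKM (SD, n = 3 each). These shares are levels and were not tested.

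**Figure D3:**
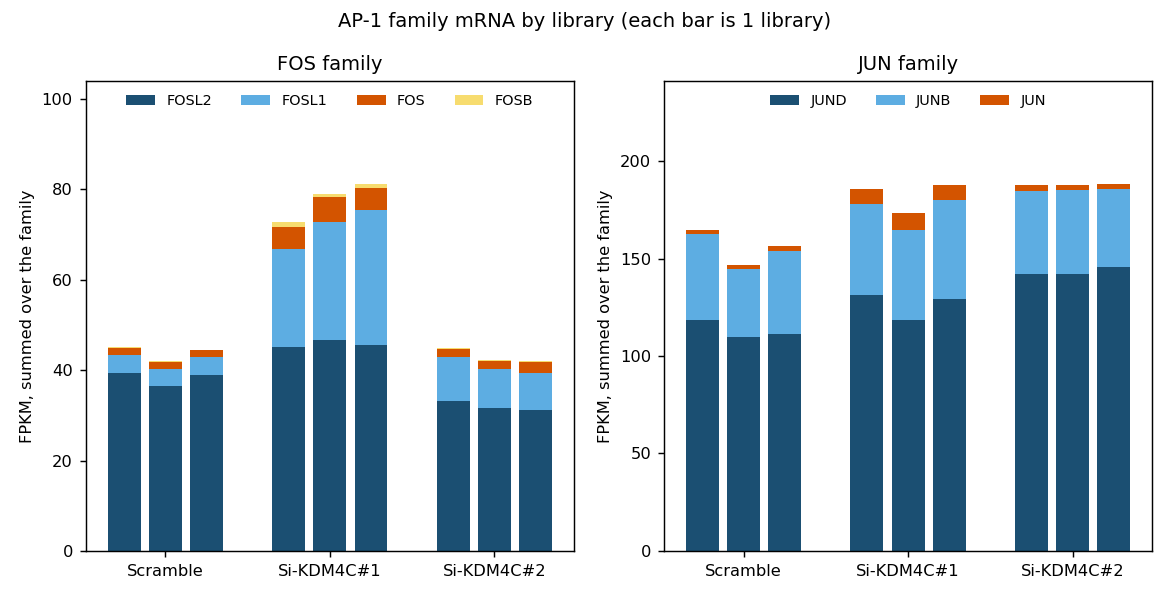
Summed FPKM of the FOS family (left) and the JUN family (right), 1 stacked bar per library, split by gene. FOSL2 and JUND are the largest segments in every library, and the FOS family bars of Si-KDM4C#1 (mean 77.7 FPKM) stand above those of Scramble (43.9 FPKM) and Si-KDM4C#2 (43.0 FPKM).

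Among the other immediate early genes, EGR1, a zinc finger factor, was at 2.03, 1.66 and 2.16 FPKM in Scramble, at 3.53, 3.54 and 4.03 FPKM with Si-KDM4C#1 and at 2.69, 2.58 and 2.71 FPKM with Si-KDM4C#2. The groups did not overlap. EGR1 rose with Si-KDM4C#1 (log2 fold change 0.67, SE 0.0795, limma-trend adjusted p = 4.72e-05) and with Si-KDM4C#2 (0.32, SE 0.0795, limma-trend adjusted p = 0.00699), the latter becoming 0.16 with the GC adjustment (limma-trend adjusted p = 0.111). EGR2 and EGR3 were barely detected: the 3 libraries of a group together held 9 to 17 fragments of EGR2 and 2 to 5 of EGR3, near a floor of 3 fragments per library, and no difference was detectable at this depth. IER2, a nuclear immediate early protein, rose with each siRNA, from 10.6 ± 0.652 FPKM to 19.8 ± 0.975 and 18.7 ± 0.214 FPKM (SD, n = 3 each). Its log2 fold changes were 0.85 and 0.77, and the 95% interval of the difference between the siRNAs ran from -0.19 to 0.04. Limma voom put that difference at -0.21 and past the FDR (adjusted p = 0.00552). A gene on the opposite strand, with no level available, covers 30.8% of the exon bases of IER2.

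IER3, a stress-inducible regulator of cell survival, moved the other way. It was at 86.8, 87.9 and 99.6 FPKM in Scramble, at 53.6, 48.9 and 52.2 FPKM with Si-KDM4C#1 and at 74.1, 81.0 and 80.6 FPKM with Si-KDM4C#2. Both siRNA groups lay below Scramble without overlap, and Si-KDM4C#1 lowest. IER3 fell by 0.81 on the log2 scale with Si-KDM4C#1 (SE 0.0614, limma-trend adjusted p = 2.18e-06) and by 0.21 with Si-KDM4C#2 (SE 0.0614, limma-trend adjusted p = 0.0133), and without Si-KDM4C#2 library 1 the latter was -0.17 and did not pass (limma-trend adjusted p = 0.0530). An antisense gene, IER3-AS1, covers 26.5% of its exon bases and was at a mean of 0.196 FPKM. IER5 was at 20.6 ± 2.12, 17.98 ± 0.918 and 18.7 ± 0.359 FPKM (SD, n = 3 each). Its fall of 0.18 with Si-KDM4C#1 (limma-trend adjusted p = 0.0389) passed in only 2 of the 9 fits that left out a library, those without Scramble library 2 or Si-KDM4C#1 library 1.

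Dual-specificity phosphatases remove the activating phosphates of MAP kinases. DUSP1, an inducible nuclear phosphatase of p38, JNK and ERK (chr5:172768090-172771195), was at 51.5, 41.0 and 46.1 FPKM in Scramble, at 96.5, 100.6 and 108 FPKM with Si-KDM4C#1 and at 43.2, 40.4 and 43.5 FPKM with Si-KDM4C#2. The Si-KDM4C#1 libraries stood clear of all others, and Scramble and Si-KDM4C#2 overlapped. DUSP1 rose 2.20 times with Si-KDM4C#1 (log2 fold change 1.13, SE 0.0766, limma-trend adjusted p = 1.08e-06), falling just under the fold limit with quantile normalization (0.95). With Si-KDM4C#2 the difference was -0.12 (limma-trend adjusted p = 0.214). It passed the FDR as -0.27 with the GC adjustment, -0.22 with quantile normalization, -0.18 in limma voom and -0.20 without Scramble library 2.

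DUSP2, another nuclear phosphatase (chr2:96143166-96145440), moved with the other siRNA. Its levels were 14.7, 11.8 and 11.5 FPKM in Scramble, 14.6, 13.9 and 15.6 FPKM with Si-KDM4C#1 and 29.7, 26.1 and 30.5 FPKM with Si-KDM4C#2. Only the Si-KDM4C#2 libraries stood apart. DUSP2 rose 2.27 times with Si-KDM4C#2 (log2 fold change 1.13, SE 0.0923, limma-trend adjusted p = 6.11e-06), or by a log2 fold change of 0.78 with the GC adjustment. The difference with Si-KDM4C#1 was 0.21 (SE 0.0923, limma-trend adjusted p = 0.0735). That smaller difference passed the FDR as 0.31 without Scramble library 1 (limma-trend adjusted p = 0.00478) and as 0.29 in limma voom (adjusted p = 0.00677). With the GC adjustment it was -0.07 (limma-trend adjusted p = 0.397).

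DUSP4, a nuclear phosphatase induced by ERK, was at 2.05, 1.98 and 1.59 FPKM in Scramble, at 3.81, 4.29 and 4.99 FPKM with Si-KDM4C#1 and at 1.53, 1.46 and 1.62 FPKM with Si-KDM4C#2. The Si-KDM4C#1 libraries were the highest, and the other groups overlapped. DUSP4 rose with Si-KDM4C#1 by 0.90 on the log2 scale (SE 0.0972, limma-trend adjusted p = 2.64e-05), a ratio of 2.32 in FPKM that the pseudocount brings under the fold limit. With Si-KDM4C#2 it differed by -0.18 (limma-trend adjusted p = 0.144). The difference passed the FDR as -0.26 with the GC adjustment (limma-trend adjusted p = 0.0395) and as -0.33 in limma voom (adjusted p = 0.0346). DUSP5, which anchors ERK in the nucleus, was at 4.61 ± 0.625, 6.48 ± 0.805 and 3.76 ± 0.395 FPKM (SD, n = 3 each). It rose with Si-KDM4C#1 alone by this test (0.41, limma-trend adjusted p = 0.00591). With Si-KDM4C#2 the DUSP5 difference was -0.23 (limma-trend adjusted p = 0.0782). This passed the FDR as -0.40 with the GC adjustment (limma-trend adjusted p = 0.0118) and as -0.355 in limma voom (adjusted p = 0.0268).

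The cytoplasmic phosphatases selective for ERK are DUSP6 and DUSP7. DUSP7 was at 6.13, 6.07 and 7.13 FPKM in Scramble, at 13.0, 12.5 and 13.5 FPKM with Si-KDM4C#1 and at 4.49, 4.38 and 4.43 FPKM with Si-KDM4C#2. The groups lay apart, with Si-KDM4C#1 above and Si-KDM4C#2 below Scramble. On the log2 scale DUSP7 rose by 0.92 with Si-KDM4C#1 (SE 0.0601, limma-trend adjusted p = 8.54e-07) and fell by 0.45 with Si-KDM4C#2 (SE 0.0601, limma-trend adjusted p = 1.48e-04). DUSP6, the best known transcriptional readout of ERK activity, was at 0.829, 1.41 and 1.27 FPKM in Scramble, at 1.00, 1.49 and 1.14 FPKM with Si-KDM4C#1 and at 1.03, 1.276 and 1.35 FPKM with Si-KDM4C#2. All groups overlapped, and the 95% intervals of its log2 fold changes ran from -0.27 to 0.34 and from -0.26 to 0.34. A gene on the opposite strand, AC024909.2 at a mean of 0.0523 FPKM, covers 40.5% of the exon bases of DUSP6.

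DUSP8 and DUSP10 act mainly on JNK and p38. DUSP8 was at 3.23, 3.04 and 3.01 FPKM in Scramble, at 5.36, 4.66 and 5.50 FPKM with Si-KDM4C#1 and at 4.85, 4.29 and 3.80 FPKM with Si-KDM4C#2. Both siRNA groups lay above Scramble, and overlapped with each other. It rose with Si-KDM4C#1 (log2 fold change 0.59, limma-trend adjusted p = 1.52e-04) and with Si-KDM4C#2 (0.37, limma-trend adjusted p = 0.00353), the latter becoming 0.01 with the GC adjustment. DUSP10 was at 3.62 ± 0.585, 2.59 ± 0.305 and 4.68 ± 0.378 FPKM (SD, n = 3 each) and so fell by 0.36 with Si-KDM4C#1 (limma-trend adjusted p = 0.0102) and rose by 0.30 with Si-KDM4C#2 (limma-trend adjusted p = 0.0262). The rise did not pass without Scramble library 1 or 3, or without Si-KDM4C#2 library 1 or 3 (0.24 to 0.29), and the fall was -0.25 and did not pass with quantile normalization (limma-trend adjusted p = 0.0563).

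Sprouty and SPRED proteins block RAS and RAF activation upstream of ERK. Of the 6 tested, 4 rose with Si-KDM4C#1 (SPRY1, SPRY2, SPRY4 and SPRED2), SPRED1 fell and SPRED3 did not pass (-0.25, or -0.42 and past the FDR with the GC adjustment), with log2 fold changes from -0.41 to 0.70. SPRED2, the most abundant, was at 5.18, 4.80 and 4.71 FPKM in Scramble, at 8.17, 8.63 and 9.03 FPKM with Si-KDM4C#1 and at 6.63, 6.42 and 7.13 FPKM with Si-KDM4C#2. The groups did not overlap, and SPRED2 rose with Si-KDM4C#1 (0.70, SE 0.0571, limma-trend adjusted p = 3.49e-06) and with Si-KDM4C#2 (0.39, SE 0.0571, limma-trend adjusted p = 2.70e-04). SPRY4 was at 0.405 ± 0.0894, 1.22 ± 0.0924 and 0.748 ± 0.0843 FPKM (SD, n = 3 each) and rose with each siRNA (0.66 and 0.32), the second of these not passing with the GC adjustment (0.25, limma-trend adjusted p = 0.0683), without Scramble library 3 (0.26) or without Si-KDM4C#2 library 1 (0.31) or 3 (0.29). With Si-KDM4C#2 only SPRY4 and SPRED2 passed. The rise of SPRY1 with Si-KDM4C#1 (0.55, limma-trend adjusted p = 0.0202) was lost without Scramble library 1 (0.45) or 2 (0.51) or Si-KDM4C#1 library 1 (0.45), and the fall of SPRED1 (-0.41) was -0.16 and did not pass with the GC adjustment.

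ETV4 and ETV5, ETS factors of the PEA3 type that act downstream of ERK, rose with each siRNA. ETV4 (chr17:43527844-43579620) was at 4.08, 3.63 and 3.48 FPKM in Scramble, at 8.35, 8.87 and 9.61 FPKM with Si-KDM4C#1 and at 10.7, 8.77 and 10.1 FPKM with Si-KDM4C#2. All 6 knockdown libraries lay above Scramble and those of the siRNAs overlapped. ETV4 was the 1 member besides FOSL1 called higher with each siRNA, at log2 fold changes of 1.07 (SE 0.0807, limma-trend adjusted p = 2.12e-06) and 1.20 (SE 0.0807, limma-trend adjusted p = 1.80e-06), which the GC adjustment lowered to 0.85 and 0.93. The difference between the siRNAs was 0.13, with a 95% interval from -0.06 to 0.31, and passed the FDR only without Si-KDM4C#2 library 2 (0.20, limma-trend adjusted p = 0.0491).

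ETV5 (chr3:186046308-186110318) was at 2.23, 2.58 and 2.68 FPKM in Scramble, at 6.52, 6.28 and 6.66 FPKM with Si-KDM4C#1 and at 4.45, 4.06 and 4.40 FPKM with Si-KDM4C#2. The groups did not overlap, with Si-KDM4C#2 in between. ETV5 rose with Si-KDM4C#1 (1.10, SE 0.0636, limma-trend adjusted p = 3.90e-07) and less with Si-KDM4C#2 (0.60, SE 0.0636, limma-trend adjusted p = 3.08e-05).

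PHLDA1, a pleckstrin homology protein induced by ERK, and MAFF, a small MAF bZIP factor, rose only with Si-KDM4C#1 by this test. PHLDA1 (chr12:76025447-76033932) was at 0.509, 0.546 and 0.391 FPKM in Scramble, at 1.99, 2.47 and 2.45 FPKM with Si-KDM4C#1 and at 0.576, 0.557 and 0.625 FPKM with Si-KDM4C#2. Its mean with Si-KDM4C#1 was 4.78 times that of Scramble (log2 fold change 1.16 on the log2(FPKM + 1) scale, SE 0.104, limma-trend adjusted p = 7.03e-06; 2.32 in limma voom), from 186 and 899 fragments over the groups, and all Si-KDM4C#1 libraries lay above all others. MAFF (chr22:38200767-38216511) was at 2.58, 2.15 and 2.47 FPKM in Scramble, at 5.87, 6.58 and 6.54 FPKM with Si-KDM4C#1 and at 2.61, 2.29 and 2.68 FPKM with Si-KDM4C#2. Scramble and Si-KDM4C#2 overlapped and Si-KDM4C#1 lay above both (log2 fold change 1.11, SE 0.0749, limma-trend adjusted p = 1.04e-06). With Si-KDM4C#2 the log2 fold changes were 0.10 for PHLDA1 and 0.05 for MAFF, and the latter became -0.24 with the GC adjustment. Genes on the opposite strand, with no level available, cover 6.85% and 9.65% of the exon bases of PHLDA1.

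SRF, which binds the CArG boxes of many immediate early genes and of its own promoter, was at 10.7, 8.99 and 9.32 FPKM in Scramble, at 17.1, 16.3 and 16.3 FPKM with Si-KDM4C#1 and at 13.2, 12.3 and 11.2 FPKM with Si-KDM4C#2. The groups did not overlap. SRF rose with Si-KDM4C#1 (0.72, SE 0.0717, limma-trend adjusted p = 1.44e-05) and with Si-KDM4C#2 (0.31, SE 0.0717, limma-trend adjusted p = 0.00422; 0.04 with the GC adjustment). Of the ZFP36 proteins, all 3 rose with Si-KDM4C#1. ZFP36L2 was at 21.5, 15.4 and 16.9 FPKM in Scramble, at 27.9, 25.1 and 27.0 FPKM with Si-KDM4C#1 and at 30.5, 31.2 and 32.8 FPKM with Si-KDM4C#2. Both siRNA groups lay above Scramble, and ZFP36L2 rose by 0.56 (SE 0.10005, limma-trend adjusted p = 7.80e-04) and 0.79 (SE 0.10005, limma-trend adjusted p = 1.05e-04). ZFP36L1 rose from 9.29 ± 0.693 FPKM to 16.6 ± 1.43 and 11.7 ± 0.448 FPKM (SD, n = 3 each), and ZFP36 from 3.76 ± 0.351 to 5.32 ± 0.352 FPKM (SD, n = 3 each) with Si-KDM4C#1, while its level with Si-KDM4C#2 was 3.89 ± 0.368 FPKM (SD, n = 3).

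**Figure D4:**
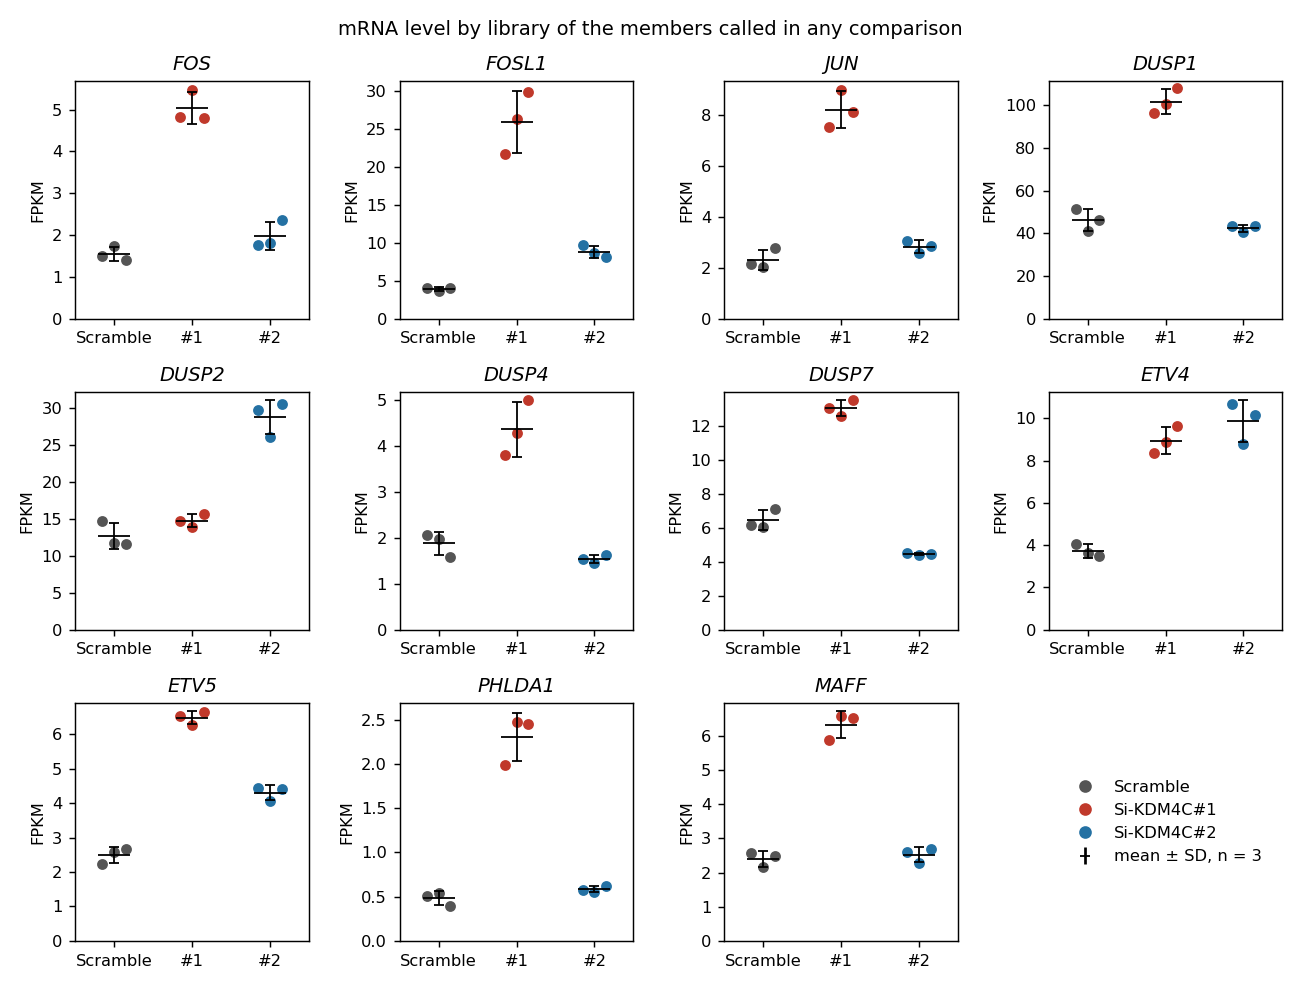
FPKM per library of the 11 members called in any comparison, with the mean and SD of 3 libraries per group; each axis starts at 0. In DUSP2 the Si-KDM4C#2 libraries (26.1 to 30.5 FPKM) stand apart, in ETV4 both siRNA groups lie above Scramble, and in the other 9 the Si-KDM4C#1 libraries are the highest.

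The direct comparison set the same 6 knockdown libraries against each other by siRNA, with the spread estimated over all 9 libraries in 1 fit. With Si-KDM4C#2 as against Si-KDM4C#1, 8 members were called lower (2.49% of all genes tested were), namely FOS, FOSL1, JUN, DUSP1, DUSP4, DUSP7, PHLDA1 and MAFF, and none was called higher with limma-trend or limma voom, with 7 higher at an unadjusted p under 0.05 (4.41% of all genes were called higher). By the FDR alone 20 members were lower (26.5% of all genes), 6 were higher (35.9% of all genes) and 6 did not pass. The median over the 31 members was -0.36, against 0.07 over all genes of that filter. The largest log2 differences were those of FOSL1 at -1.45 (SE 0.105, limma-trend adjusted p = 2.15e-06), DUSP7 at -1.37 (SE 0.0601, limma-trend adjusted p = 1.05e-07), JUN at -1.26 (SE 0.0962, limma-trend adjusted p = 2.90e-06) and DUSP1 at -1.24 (SE 0.0766, limma-trend adjusted p = 7.75e-07). DUSP2 showed the largest difference in the other direction, at 0.92 (SE 0.0923, limma-trend adjusted p = 1.87e-05). All 8 remained called with the GC adjustment, which moved the calls over all genes from 634 higher and 358 lower to 490 and 456. FOS fell under the fold limit without Si-KDM4C#1 library 2 (-0.97) or without Si-KDM4C#2 library 1 (-0.97) or 2 (-0.98), and DUSP4 without Si-KDM4C#1 library 3 (-0.99).

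Other genes of the pathways were counted over whole lists, and those named are the ones called with the largest changes. The shares of all genes to read the counts against are 31.7% that rose and 33.9% that fell with Si-KDM4C#1, while for Si-KDM4C#2 they are 34.4% and 25%. Of 27 tested genes of the RAS-ERK cascade, 11 rose (40.7%) and 9 fell (33.3%) with Si-KDM4C#1 and the same numbers with Si-KDM4C#2, near those shares, with median log2 fold changes of -0.01 and -0.02. Called among them were SOS1, the RAS exchange factor, which was at 11.4 ± 0.514, 4.27 ± 0.288 and 6.25 ± 0.234 FPKM (SD, n = 3 each) and fell by 1.23 and 0.77; PTPN11, the phosphatase SHP2 that promotes RAS activation, which was at 15.9 ± 0.699, 35.4 ± 2.66 and 38.5 ± 0.329 FPKM (SD, n = 3 each) and rose by 1.11 and 1.23; and MKNK2, a kinase activated by ERK and p38, which rose by 1.04 and 2.11. Of 18 genes of the JNK and p38 cascades, 8 rose and 5 fell with Si-KDM4C#1 and 9 rose and 9 fell with Si-KDM4C#2. The p38 activators went apart with Si-KDM4C#1, MAP2K3 rising by 1.44 and MAP2K6 falling by 1.27, and MAPKAPK3, a kinase downstream of p38, rose by 1.21.

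Of 11 other AP-1 and CREB factors, 8 rose and 2 fell with Si-KDM4C#1, and 5 rose and 4 fell with Si-KDM4C#2. ATF3, a stress-inducible partner of JUN, was at 3.72 ± 0.0268 FPKM in Scramble, 17.3 ± 1.58 FPKM with Si-KDM4C#1 and only 4.17 ± 0.212 FPKM with Si-KDM4C#2 (SD, n = 3 each). It rose with Si-KDM4C#1 (1.95, limma-trend adjusted p = 1.83e-08) and not past the FDR with Si-KDM4C#2 (0.13, limma-trend adjusted p = 0.118), while BATF3 rose by 1.298 and 0.50. Of 26 further immediate early genes, 14 rose (53.8%) and 5 fell (19.2%) with Si-KDM4C#1, and 8 rose (30.8%) and 6 fell (23.1%) with Si-KDM4C#2, the latter near the shares over all genes. The orphan receptors NR4A1 and NR4A2 rose by 1.76 and 1.33 with Si-KDM4C#1 and by 0.39 and 0.51 with Si-KDM4C#2, the 0.39 of NR4A1 becoming 0.15 with the GC adjustment (limma-trend adjusted p = 0.0844). GADD45A, a growth arrest gene, was at 13.2 ± 1.43, 36.1 ± 2.74 and 13.8 ± 1.21 FPKM (SD, n = 3 each).

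The last lists hold partners and targets of SRF and AP-1 and further phosphatases. Of 6 SRF cofactors, 4 rose and 2 fell with Si-KDM4C#1 and 5 rose with Si-KDM4C#2 while the other did not pass, FHL2 rising by 1.02 and 0.36. Of 11 cytoskeletal targets of SRF, 5 rose and 4 fell with Si-KDM4C#1, and 4 rose and 4 fell with Si-KDM4C#2. CALD1, the actin-binding protein caldesmon, was at 33.7 ± 0.873, 13.0 ± 0.621 and 2.95 ± 0.377 FPKM (SD, n = 3 each) and fell by 1.31 and 3.14, TPM1 fell by 1.00 and 0.30, and VCL, encoding vinculin, by 0.41 and 1.17. Of 9 tested genes of the AP-1 and ERK target list, 4 rose and 3 fell with Si-KDM4C#1, and 1 rose and 5 fell with Si-KDM4C#2. CCND1, the G1 cyclin D1, was at 31.0 ± 1.75, 48.6 ± 1.05 and 12.1 ± 0.761 FPKM (SD, n = 3 each), rising by 0.63 with Si-KDM4C#1 and falling by 1.29 with Si-KDM4C#2, and HMGA1, a chromatin protein, rose by 1.16 and 0.86. Of 9 other dual-specificity phosphatases, 3 rose and 1 fell with Si-KDM4C#1, and 3 rose and 3 fell with Si-KDM4C#2. DUSP14 rose by 0.91 with Si-KDM4C#1 and fell by 0.33 with Si-KDM4C#2, whereas DUSP23 rose with Si-KDM4C#2 (1.32) from 0.806 ± 0.229 FPKM to 3.49 ± 0.321 FPKM (SD, n = 3 each). In bulk RNA a change in every cell and a change in some of the cells cannot be told apart.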

How the data were processed

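Total RNA of 9 samples labelled Huh7 was extracted with TRIzol and sequenced on NovaSeq after library preparation with the NEB Next Ultra kit. The submitters' processing notes name FastQC 0.11.5, HISAT2 2.1.0, StringTie 1.3.3b, featureCounts, DESeq 1.28.0 and GRCh38. The annotation and the use of strand are not given in the sources used here. The authors deposited FPKM per gene and library, and depth was recovered from them. After multiplication by GENCODE 29 exon lengths and the recovered library totals, 97.65% of genes with a length gave whole fragments in all libraries within 0.05.

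Values were analysed as log2(FPKM + 1) with limma-trend (limma 3.58.1, R 4.3.3), all 9 libraries in 1 fit without covariates, over the 14363 genes that averaged 1 FPKM or more in any of the 3 groups, with Benjamini-Hochberg adjustment. A gene rose or fell at an FDR under 0.05 and was called where its fold change also passed 2. FOSB, EGR2 and EGR3, under the filter, were taken from the fit over all 32906 genes. Fold changes on this scale understate those of low genes. A floor of 3 fragments corresponds to 0.166 to 0.206 FPKM for a gene of 1 kb, and covers counting error only.

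Alternatives were another pseudocount (0.1), other filters, quantile normalization, GC adjustment, a replicate block, the 6 libraries of a comparison alone, each library left out, and limma voom on recovered fragments. The filter on the mean over all libraries and voom with the block were chosen after seeing the data. On simulated data with 200 genes changed 4-fold, limma-trend recovered 98.5% for each siRNA against Scramble over 13644 genes. The changed genes were drawn only from those above a set mean FPKM, and the same small spread was given to all genes. The recovery therefore does not extend to the lowest members or to smaller changes.

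The members and lists were chosen with earlier results of these data known. Every member is accounted for. Values per library are given for members called in any comparison, for the most abundant member of each role group, and for FOS, JUN, EGR1, DUSP6 and SRF. Of each pathway list at most 3 genes are named, those called with the largest absolute log2 fold change in any comparison, with KDM4C and KDM4B besides. A result that this rule would name is not reported here. Groups come from the treatment labels. Figures were drawn with matplotlib 3.10.9. The siRNA sequences are not printed here.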

Additional observations from a re-analysis of the deposited data

Results flagged for a closer look

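FOSL2, DUSP7 and DUSP10 were flagged because they passed the FDR in opposite directions with the siRNAs and also passed in the direct limma-trend comparison. Passing these tests was the rule of choice, so it adds no further evidence. With Si-KDM4C#2 as against Si-KDM4C#1 the log2 difference was -0.50 for FOSL2, -1.37 for DUSP7 and 0.67 for DUSP10. The libraries of the siRNAs did not overlap for any of these, which held in the upward direction for 40% and in the downward direction for 29.3% of all genes tested. With quantile normalization the rise of FOSL2 and the fall of DUSP10 with Si-KDM4C#1 did not pass the FDR. The rise of DUSP10 with Si-KDM4C#2 did not pass in several fits that left out a library. Groups of 3 libraries were not tested for single libraries that stand apart.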

How the results depend on the processing

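The 8 members called higher with Si-KDM4C#1 were the same in all 9 fits that left out a library. With the GC adjustment, with or without the replicate block, 0 members were called higher with Si-KDM4C#2. Without the fold limit, Si-KDM4C#1 gave 25 members higher and 4 lower, Si-KDM4C#2 gave 14 higher and 3 lower, and the comparison of the siRNAs 6 higher and 20 lower. Directions against Scramble that turned with the GC adjustment, with or without the block, and passed the FDR before or after it were those of JUND (-0.24 with Si-KDM4C#1, -0.14 with Si-KDM4C#2), JUNB (-0.057 and -0.31) and, with Si-KDM4C#2, MAFF (-0.24). Below the FDR both before and after, DUSP2 with Si-KDM4C#1 (-0.07) and ZFP36 (-0.15) and SPRED1 (0.02) with Si-KDM4C#2 also turned. Quantile normalization turned JUND with Si-KDM4C#1 (-0.051) and, not past the FDR before or after, JUNB with Si-KDM4C#2 (-0.046). Limma voom turned JUNB (-0.007) and ZFP36 (-0.010) with Si-KDM4C#2, and with the block also DUSP6 (-0.008). None of these voom turns passed the FDR before or after. The cause was not tested.

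The replicate block called the same numbers of members (8 higher with Si-KDM4C#1, 3 higher with Si-KDM4C#2, 8 lower between the siRNAs). With it DUSP2 passed with Si-KDM4C#1 (limma-trend adjusted p = 0.0493), while SPRY4 with Si-KDM4C#2 did not (limma-trend adjusted p = 0.0571). Deviations of libraries with the same number were nearly uncorrelated (-0.0461 to 0.0546 over 9 pairs, mean 0.0162). The 18 pairs with different numbers had a mean of -0.00808. As 6 of 9 libraries were closest to a library of their own number, some pairing is not excluded. The main fit was left without the block. Limma voom called 12, 3 and 9 members in the same order, and a pseudocount of 0.1 called 11 with Si-KDM4C#1. Members under about 1 FPKM (FOSB, EGR2, EGR3, SPRY4, PHLDA1) rest on few fragments.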
